A study of Mus musculus with 48 samples.

Results

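Cytochrome P450 (P450) enzymes and UDP-glucuronosyltransferases (UGT enzymes) were followed in mouse renal cortex after ischemia/reperfusion injury (IRI). The genes were all symbols of P450 families 1 to 4, without the Cyp4a genes, and of UGT families 1 to 8 that the deposited transcript table held. This gave 51 of 14320 genes, 34 of them P450 genes and 17 UGT genes. The names alone chose them from the table, but the table itself was filtered by level, since every deposited transcript reached 0.5 FPKM in at least 1 kidney. The same naming rule finds 121 genes in the GENCODE M21 annotation of the mouse genome build GRCm38, and the other 70 were not analysed here. One of the 51, Cyp2d37-ps, is annotated as a transcribed pseudogene.

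P450 enzymes are haem proteins of the endoplasmic reticulum that insert oxygen into drugs, steroids and fatty acids, and they receive electrons from the reductase encoded by Por. UGT enzymes attach a sugar, usually glucuronic acid, to such compounds so that they can leave in bile or urine. Liver is the main site of both families. In the kidney they are known mostly from the proximal tubule, where some P450 enzymes also turn arachidonic acid into vasoactive epoxides, and in mice many of these genes differ between the sexes.

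The left renal pedicle of male C57BL/6 mice was clamped for 20 minutes (mild IRI) or 40 minutes (severe IRI), and cortex was collected on day 1 or day 3. There were 24 mice, 6 in each combination of clamp time and day. Each mouse gave its left kidney (IRI) and its right kidney (self-control), 48 libraries in all. The study's methods describe the right kidney as removed before the left clamp, while the labels give it the day of the left kidney, so when the control tissue was taken relative to the injury cannot be told from these sources. In each comparison of IRI with control, the clamp cannot be told apart from side or, by that description, from loss of the other kidney. Levels are FPKM, fragment counts scaled to the length of the transcript and the size of the library, summed over the transcripts of a gene. Where 3 values are given for a group they are the lowest, the median and the highest of its 6 kidneys. A change is a log2 difference of FPKM + 0.01, with its standard error (SE) from limma and a p adjusted by the Benjamini-Hochberg method over all genes tested. A gene is said to have risen or fallen where the adjusted p was under 0.05 and the change at least 2-fold.

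The spacing of low FPKM values put the depth at about 18900000 to 32200000 reads a library, and no libraries were identical. The summed level of 12 proximal tubule markers was 1051 to 2068 and 1462 to 2202 FPKM in 40-minute IRI kidneys on day 1 and day 3, 2419 to 3977 and 2025 to 3496 FPKM in 20-minute IRI kidneys on these days, and 3945 to 4903 FPKM in controls. In bulk cortex, fewer tubule cells and less RNA per cell cannot be told apart, and the part of tubule loss in the falls below was not tested. Of 5 adrenal markers only Star was listed, at or under 1.10 FPKM in every kidney. Adipocyte markers (4 listed of 5) summed to 2.89 to 127 FPKM in 40-minute IRI kidneys on day 3, to at most 42.2 FPKM in the other IRI groups, and to 0 to 0.232 FPKM in controls. Hepatocyte markers (4 listed of 5) summed to 10.4 to 27.5 and 12.7 to 51.5 FPKM after 40-minute IRI, 54.8 to 93.2 and 50.6 to 117 FPKM after 20-minute IRI, and 23.8 to 71.2 FPKM in controls. The part of these cells in the results was not tested.

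In control cortex a few genes made up most of the signal. The 6 most abundant of the 51 held 77.6% of their summed FPKM, and all 51 held 1.1% of the summed FPKM of all genes. Cyp4b1, which oxidises fatty acids and some protoxins, stood first with 888 ± 116 FPKM (mean ± SD, n = 24 control kidneys). It was followed by Cyp2j5, an arachidonic acid epoxygenase known from mouse kidney, with 745 ± 43.7 FPKM. Ugt3a2, of a UGT family that uses sugars other than glucuronic acid in humans, had 607 ± 27.6 FPKM. The steroid and drug conjugating Ugt2b38 had 550.5 ± 94.8 FPKM. Cyp2e1, which oxidises ethanol and acetaminophen, had 476 ± 123 FPKM. Neighbours in this order lay within 1 SD of each other for Ugt3a2 with Ugt2b38 and for Ugt2b38 with Cyp2e1, so their order is not set apart from their spread. The remaining genes of the 12 highest were Cyp2d26, Cyp2j11, Ugt3a1, Ugt2b37, Ugt1a7c, Cyp2a4 and Cyp2j13, from 152 ± 50.04 down to 88.3 ± 14.0 FPKM. At the other end, 13 of the 51 averaged under 1 FPKM in controls, where FPKM values come from few reads.

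**Figure D1:**
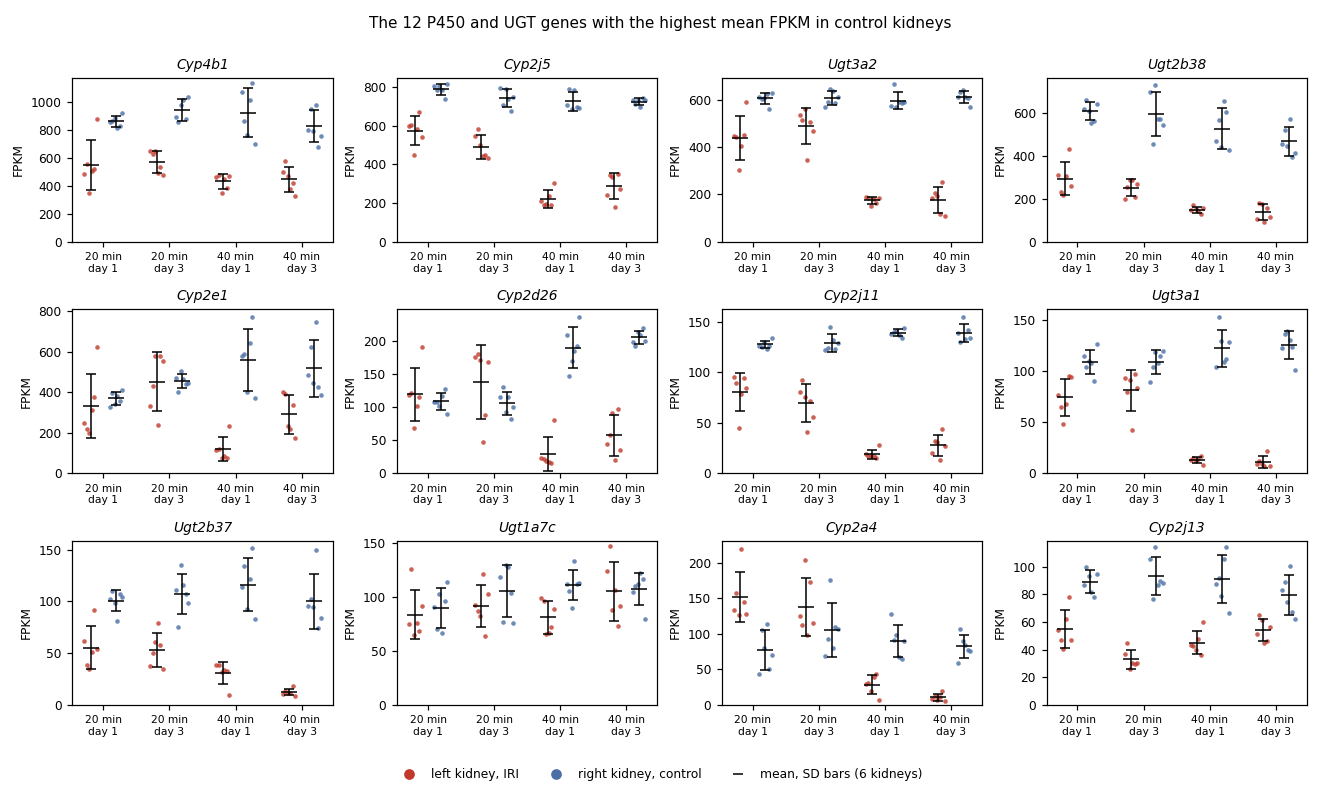
FPKM of the 12 P450 and UGT genes with the highest mean in control kidneys, by clamp time and day; each point is 1 kidney, the bar is the mean of 6 and the whiskers are the SD. IRI kidneys (red, left of each pair) lie below their controls (blue) for most genes after 40 minutes; Cyp2a4 lies above its controls on day 1 after 20 minutes.

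The first question was what happened to these genes after severe injury. On day 1 after 40-minute IRI, 22 of the 51 genes fell and 7 rose, against 7.39% and 15.7% of the 14276 genes tested. Thus 43.1% of the 51 genes fell and 13.7% rose, and the share that rose is near that of all genes. The median log2 difference was -0.76 for the 51 genes and 0.24 for all genes. On day 3, 20 fell and 12 rose, against 5.98% and 15.3% of the genes tested, with medians of -0.61 and 0.16. On both days 18 genes fell and 6 rose, and none turned from one direction to the other. How many of all genes fell, rose or turned over both days was not counted, so these 3 results are a description. The filter of the deposited table bears on some of these counts: Cyp2b10, Cyp3a13, Cyp2d10 and Cyp2d37-ps reached 0.5 FPKM in IRI kidneys alone and Cyp1a1 and Cyp2c68 in controls alone, so the direction of their differences is partly set by their being in the table. Of the genes that rose after 40 minutes Cyp2b10 and Cyp3a13 are such genes on both days. Of those that fell Cyp2c68 is one on both days and Cyp1a1 on day 3. Of the 23 genes that averaged at least 10 FPKM in controls, 16 fell and 0 rose on day 1, and 13 fell and 0 rose on day 3. None of the genes that rose after 40 minutes averaged 10 FPKM or more in controls. That level was read from control kidneys that also enter the comparison. The shares of all genes at that level that rose or fell were not counted, so these counts are a description. Scaling libraries to an equal median moved the median of all genes on day 1 to 0.03 and gave 1750 genes higher and 1404 lower, beside 2244 higher and 1055 lower without it. The 51 genes then had 6 higher and 22 lower, with a median of -0.96.

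The summed FPKM of the 34 P450 genes was 843, 1059 and 1372 in 40-minute IRI kidneys on day 1, against 2503, 3012 and 3337 in their controls. On day 3 it was 1071, 1459 and 1725, against 2530.2, 2701 and 3215. For the 17 UGT genes the sum was 476, 573 and 712 against 1448, 1593 and 1740.3 on day 1 and 419, 599.9 and 765 against 1431, 1547 and 1710.4 on day 3. The IRI and control kidneys did not overlap in any of these 4 sums. After 20 minutes the P450 sum was 1496, 2105 and 2929 in IRI kidneys against 2461, 2588 and 2690.2 in controls on day 1, and the groups overlapped, as they did on day 3. The UGT sum after 20 minutes did not overlap on either day, with 878, 1199 and 1383 in IRI kidneys against 1569, 1703 and 1829.9 in controls on day 1 and 1015, 1239.8 and 1370.0 against 1584, 1697 and 1896 on day 3. These sums weight the abundant genes and are given as a description.

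Ugt3a1 had the largest fall among the UGT genes after 40 minutes. Its enzyme transfers N-acetylglucosamine in humans. It measured 7.92, 13.5 and 16.5 FPKM in 40-minute IRI kidneys on day 1, against 104, 120.2 and 153 FPKM in controls, and 6.77, 9.04 and 21.7 FPKM against 101, 127 and 139.9 FPKM on day 3. No IRI kidney reached a control on either day. The log2 differences were -3.26 (SE 0.16, adjusted p = 7.4e-09) and -3.64 (SE 0.24, adjusted p = 6.4e-08). After 20 minutes the values were 47.8, 72.5 and 95.1 FPKM in IRI kidneys against 90.3, 109 and 127 FPKM in controls on day 1, and the groups overlapped. The neighbouring Ugt3a2 gave 149, 182 and 189 FPKM against 571, 590.2 and 667 FPKM on day 1 after 40 minutes. It fell on both days, by 3.43-fold and 3.61-fold, again without overlap. Both genes lie side by side on chromosome 15 (chr15:9276888-9315032 and chr15:9335550-9370955, GRCm38).

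The promoter of Ugt3a1 is shown because it was the only one among the promoters of these genes with the long form of the binding motif of hepatocyte nuclear factor 1, a transcription factor of liver and proximal tubule. RefSeq gave a promoter window, 250 bases before to 50 after the start site on GRCm38.p6, for 42 of the 51 genes, 46 windows in all. The motif searched on both strands was GTTAAT followed, after 2 bases of any kind, by TTAAC, and capitals mark its match, which reads on the opposite strand and begins 130 bases before the start site (chr15:9279579-9279878, plus strand).
Ugt3a1: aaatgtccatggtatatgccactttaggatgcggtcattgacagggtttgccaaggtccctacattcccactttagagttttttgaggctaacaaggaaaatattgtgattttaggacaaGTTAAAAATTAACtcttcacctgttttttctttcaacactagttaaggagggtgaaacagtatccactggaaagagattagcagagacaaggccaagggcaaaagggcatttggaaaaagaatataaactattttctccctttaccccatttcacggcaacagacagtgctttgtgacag
Of all 32851 promoter windows, 0.0396% held this motif. The half-site GTTAAT, the first letters of this motif, was in 12 of the 46 windows (26.1%) and in 7.1% of all windows. The 12 windows belonged to Cyp2a4, Cyp2a5, Cyp2c68, Cyp2c69, Cyp2d26, Cyp4f14, Ugt1a1, Ugt1a6a, Ugt1a9, Ugt1a10, Ugt2a3 and Ugt3a1, genes that fell and genes that rose. The other motifs were also read on both strands. AGGTCA, a nuclear receptor half-site, was in 19.6% of these windows and 16.3% of all. The aryl hydrocarbon receptor core GCGTG was in 30.4% and 32.4%, the AP-1 site TGANTCA in 13% and 7.81%, and TATAAA, the core promoter box, in 21.7% and 13.6%. A match in a window is a description of its letters.

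The Cyp2j cluster on chromosome 4, which encodes arachidonic acid epoxygenases among others, held genes that fell and genes that did not. Cyp2j5 measured 187, 202 and 305 FPKM in 40-minute IRI kidneys against 688, 700.3 and 791 FPKM in controls on day 1, and 181, 304 and 349.6 FPKM against 696, 731 and 743 FPKM on day 3. It fell without overlap, by log2 differences of -1.74 (SE 0.11, adjusted p = 6e-08) and -1.37 (SE 0.14, adjusted p = 3.4e-06). Cyp2j11 fell further, with 15.5, 16.7 and 27.7 FPKM against 134, 139 and 144 FPKM on day 1 and a log2 difference of -2.93 (SE 0.12, adjusted p = 2.1e-09). On day 3 the difference was -2.41 (SE 0.22, adjusted p = 1.2e-06). Cyp2j13 fell on day 1 after 40 minutes at -1.01 and on day 3 after 20 minutes at -1.52. Its call on day 1 after 40 minutes was lost without replicate 2, 4 or 5 (log2 differences of -0.99 to -0.88, adjusted p of 0.00037 to 0.0006). Cyp2j6, in the same cluster, had 14.0, 15 and 21.6 FPKM in 40-minute IRI kidneys on day 1 against 14.2, 15.8 and 17.6 FPKM in controls, a log2 difference of 0.00 (SE 0.10, adjusted p = 0.98). On day 3 all IRI kidneys were above all controls, at 20.1, 24.3 and 30.02 FPKM against 12.9, 15.5 and 15.9 FPKM, a log2 difference of 0.70 (SE 0.09, adjusted p = 2.4e-05) that stayed under 2-fold. Cyp2c23, another arachidonic acid epoxygenase, fell on day 1 (-1.55, adjusted p = 4.5e-05) and stood at the 2-fold limit on day 3 (-1.0), where its call was lost without replicate 1, 4, 5 or 6 (log2 differences of -1.0 to -0.93, adjusted p of 8.4e-05 to 0.0001).

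Cyp4b1, the most abundant gene, measured 347, 453 and 475 FPKM in 40-minute IRI kidneys against 697, 936 and 1132 FPKM in controls on day 1. The groups did not overlap and the log2 difference was -1.09 (SE 0.13, adjusted p = 1.1e-05). That call was lost without replicate 5 (log2 difference -0.99, adjusted p = 0.00012). On day 3 the difference was -0.90 (SE 0.13, adjusted p = 6.8e-05), under 2-fold, and it became -1.03 (adjusted p = 4.9e-05) when libraries were scaled to an equal median. After 20 minutes the differences were -0.71 (SE 0.16, adjusted p = 0.029) on day 1 and -0.74 (SE 0.10, adjusted p = 0.00035) on day 3. The fold changes of Cyp4b1 after 40 and 20 minutes were not called different on either day, at -0.38 (SE 0.22, adjusted p = 0.19) and -0.17 (SE 0.17, adjusted p = 0.49).

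The second question was how mild injury compared. After 20 minutes 4 of the 51 genes rose and 2 fell on day 1, against 1.19% and 0.442% of the 14238 genes tested. On day 3, 9 rose and 6 fell, against 2.34% and 1.73%. The medians over the 51 genes were 0.03 and 0.15, beside 0.10 and 0.02 for all genes. With each mouse as a block the count that rose on day 1 was 2. It was 2 without replicate 1 or 2 and 1 without replicate 3 or 4, and on day 3 it was 5 without replicate 1 or 6 and 4 without replicate 3 or 5. Kidneys within these groups differed in injury: the summed level of 5 injury markers (the list of injured proximal tubule, Krt20, Lcn2 and Havcr1 among them) was 870.0 and 482 FPKM in replicates 3 and 4 on day 1, 1155 FPKM in replicate 4 on day 3, and at most 151 FPKM in the other 20-minute IRI kidneys. Without replicate 4 on day 3, 11 genes rose and 6 fell.

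**Figure D2:**
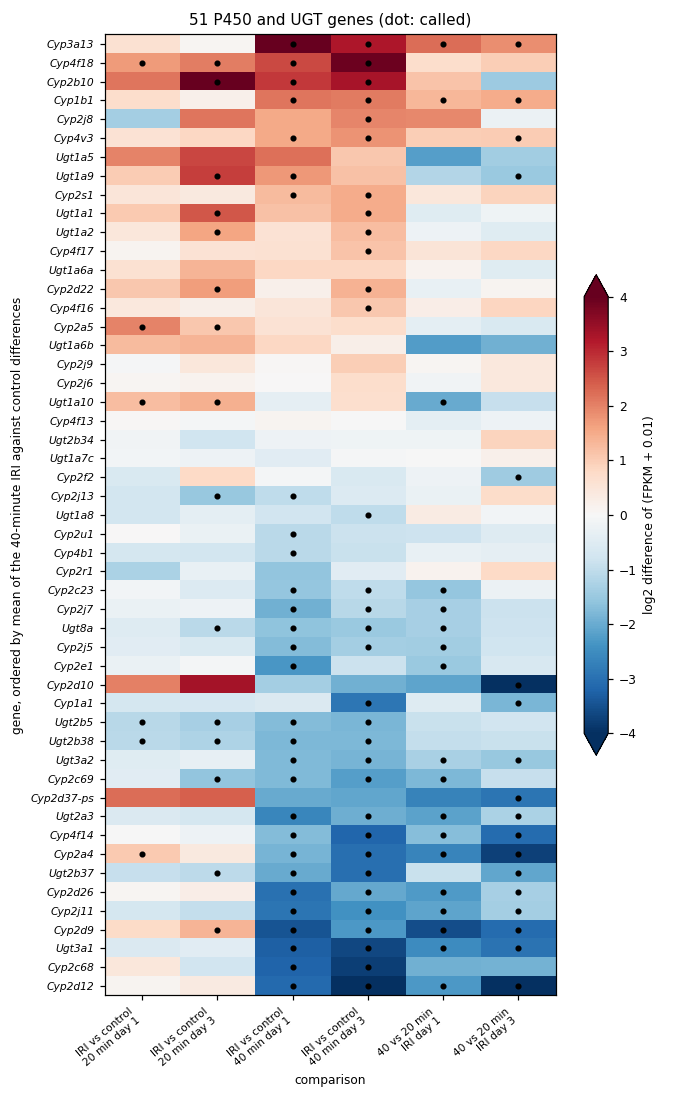
Log2 differences of FPKM + 0.01 for the 51 genes (rows, ordered by the mean of the 40-minute IRI against control differences) in 6 comparisons (columns); red is higher and blue lower in the group named first, the scale ends at 4 either way, and a dot marks a gene that passed the test. The dots on blue in the 40-minute columns are the genes that fell, 22 on day 1 and 20 on day 3.

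Ugt2b38 and Ugt2b5 were the only genes that fell in all 4 comparisons of IRI with control. They lie in the Ugt2b cluster on chromosome 5 (chr5:87409942-87424203 and chr5:87124960-87140318), whose enzymes conjugate steroids and drugs. Ugt2b38 measured 218, 283 and 432 FPKM in 20-minute IRI kidneys on day 1 against 556, 616 and 660.4 FPKM in controls, and 201, 263 and 288 against 455, 573 and 734 FPKM on day 3. After 40 minutes it measured 128, 150.1 and 169.6 against 426, 519.6 and 656 FPKM on day 1 and 92.3, 137 and 180.4 against 394, 452 and 575 FPKM on day 3. No IRI kidney overlapped with its controls. The log2 differences were -1.09 (SE 0.14, adjusted p = 0.0028) and -1.24 (SE 0.13, adjusted p = 7.9e-05) after 20 minutes, and -1.81 (SE 0.11, adjusted p = 4.5e-08) and -1.80 (SE 0.17, adjusted p = 1.6e-06) after 40 minutes. Ugt2b5 followed with -1.11, -1.33, -1.74 and -1.82 in the same order, at levels of 7.94 to 12.7 FPKM in 40-minute IRI kidneys on day 1 against 27.8 to 45.0 FPKM in controls. Of the 150-base windows of their transcripts 19.2% of Ugt2b38 and 19.5% of Ugt2b5 are identical in the other gene, so reads from those stretches could be assigned to either.

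The promoter windows of both genes are shown, as they fell together; capitals mark the AGGTCA half-site that each holds, 25 bases before the start site in Ugt2b38 and 22 in Ugt2b5 (RefSeq, GRCm38.p6, minus strand, chr5:87424154-87424453 and chr5:87140291-87140590).
Ugt2b38: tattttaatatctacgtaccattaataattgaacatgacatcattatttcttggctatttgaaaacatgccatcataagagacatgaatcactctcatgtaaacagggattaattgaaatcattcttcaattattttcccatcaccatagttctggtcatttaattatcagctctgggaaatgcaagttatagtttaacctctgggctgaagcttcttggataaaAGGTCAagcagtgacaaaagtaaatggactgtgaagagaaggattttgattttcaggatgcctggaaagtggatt
Ugt2b5: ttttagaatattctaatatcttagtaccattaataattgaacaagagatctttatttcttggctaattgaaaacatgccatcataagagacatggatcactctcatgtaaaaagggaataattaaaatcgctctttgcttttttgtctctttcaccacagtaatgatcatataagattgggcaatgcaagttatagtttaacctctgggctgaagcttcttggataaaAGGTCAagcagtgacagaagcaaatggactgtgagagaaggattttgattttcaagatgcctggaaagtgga
The third abundant gene of the cluster, Ugt2b37, measured 8.85, 11.5 and 18.1 FPKM in 40-minute IRI kidneys on day 3 against 74.0, 94.8 and 149.8 FPKM in controls. Its log2 difference there was -3.02 (SE 0.18, adjusted p = 3.3e-08), beside -2.02 (SE 0.31, adjusted p = 0.0001) on day 1. After 20 minutes it was -1.04 (SE 0.20, adjusted p = 0.0033) on day 3, a call that was lost without replicate 1 or 6 (log2 differences of -0.95 to -0.94, adjusted p of 0.014 to 0.02). Ugt2b34, in the same cluster, passed in none of the 4 comparisons, with log2 differences between -0.81 and -0.13. Ugt2a3 fell after 40 minutes on both days (-2.61 and -1.97) at levels at or under 1.29 FPKM. Ugt8a, which makes galactosylceramide, fell after 40 minutes (-1.62 and -1.48) and on day 3 after 20 minutes (-1.09, adjusted p = 2e-05), where it measured 15 to 21 FPKM in IRI kidneys against 35.6 to 42.5 FPKM in controls.

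Some genes of steroid hydroxylation stood on opposite sides of their controls after mild and after severe injury. Cyp2a4, a testosterone hydroxylase in mice, measured 127, 139 and 219.7 FPKM in 20-minute IRI kidneys on day 1 against 43.6, 74.7 and 114 FPKM in controls. Every IRI kidney was above every control, and the log2 difference was 1.03 (SE 0.23, adjusted p = 0.026). It lies near the 2-fold limit: the call was lost without replicate 1, 2, 3, 4 or 5 (log2 differences of 0.92 to 1.12, adjusted p of 0.053 to 0.075), and after scaling to an equal median the difference was 0.94 (adjusted p = 0.034). After 40 minutes Cyp2a4 measured 6.25, 29.8 and 42.8 FPKM against 64.6, 90.2 and 127 FPKM on day 1 and 5.74, 9.69 and 19.2 FPKM against 58.4, 80.9 and 107 FPKM on day 3. Every IRI kidney was now below every control, with log2 differences of -1.87 (SE 0.39, adjusted p = 0.0012) and -3.03 (SE 0.25, adjusted p = 5.7e-07). The difference of the 40-minute and 20-minute fold changes was -2.90 (SE 0.48, adjusted p = 0.00012) on day 1 and -3.43 (SE 0.36, adjusted p = 7.9e-07) on day 3.

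Cyp2a5, the coumarin hydroxylase, is the near copy of Cyp2a4 on chromosome 7 (chr7:26835305-26843548, against chr7:26307169-26315088 for Cyp2a4). It measured 48.5, 68.4 and 95.0 FPKM in 20-minute IRI kidneys on day 1 against 11.1, 17.5 and 26.8 FPKM in controls, without overlap, a log2 difference of 2.0 (SE 0.22, adjusted p = 0.0012). On day 3 after 20 minutes the difference was 1.06 (SE 0.28, adjusted p = 0.021), a call that was lost without replicate 3, 5 or 6 (log2 differences of 0.87 to 1.13, adjusted p of 0.054 to 0.094). After 40 minutes it gave 34.4, 56.0 and 77.1 FPKM against 27.8, 30.4 and 55.4 FPKM on day 1, a log2 difference of 0.59 (SE 0.23, adjusted p = 0.04), and 0.70 (SE 0.32, adjusted p = 0.077) on day 3. Thus in the kidneys where Cyp2a4 fell, Cyp2a5 had positive differences that were not called. The controls differed too. Cyp2a5 was higher in the controls of 40-minute mice than in those of 20-minute mice on day 1 (1.03, SE 0.22, adjusted p = 0.027), and it was the only one of the genes called between the control groups, where 0.226% of all genes were called higher. This call was lost without 40-minute replicate 1 or 5 and without 20-minute replicate 1, 2, 3 or 4 (log2 differences of 0.90 to 1.04, adjusted p of 0.046 to 0.062). Between the controls of 40-minute and 20-minute mice, 14 of the 51 genes had an unadjusted limma p under 0.05 on day 1 and 14 on day 3. The same share over all genes is not given here.

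How far reads can separate these copies depends on their sequence. The coding sequences of the Cyp2a4 and Cyp2a5 transcripts match at 98.4% of 1482 bases, with 23 mismatches, and 4.22% of the 150-base windows of the Cyp2a4 transcript are identical in Cyp2a5. The 60 coding bases with the most mismatches inside an exon, bases 197 to 256 of each coding sequence, are shown with the mismatched bases in capitals (GRCm38, plus strand, chr7:26307666-26307725 and chr7:26835811-26835870).
Cyp2a4: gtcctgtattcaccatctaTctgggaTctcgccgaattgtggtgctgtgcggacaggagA
Cyp2a5: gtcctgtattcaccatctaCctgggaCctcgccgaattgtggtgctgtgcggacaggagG
Their promoter windows are as close, and are shown because the genes moved apart after 40 minutes: 294 aligned bases are identical and 5 differ, and capitals mark the differing bases and the base of each window that has no partner in the other (RefSeq, GRCm38.p6, plus strand, chr7:26306942-26307241 and chr7:26835089-26835388).
Cyp2a4: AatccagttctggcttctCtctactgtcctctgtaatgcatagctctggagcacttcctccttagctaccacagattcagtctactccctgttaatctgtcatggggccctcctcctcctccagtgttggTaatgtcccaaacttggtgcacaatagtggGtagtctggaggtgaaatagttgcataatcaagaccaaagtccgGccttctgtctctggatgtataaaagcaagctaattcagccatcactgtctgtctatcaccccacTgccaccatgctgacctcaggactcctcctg
Cyp2a5: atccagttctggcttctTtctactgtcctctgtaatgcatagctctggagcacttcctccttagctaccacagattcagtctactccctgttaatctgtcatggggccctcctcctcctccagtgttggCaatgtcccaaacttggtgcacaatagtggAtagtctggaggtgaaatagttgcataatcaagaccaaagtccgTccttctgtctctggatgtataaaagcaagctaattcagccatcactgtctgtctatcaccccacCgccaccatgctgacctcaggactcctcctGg
The summed FPKM of both genes, which depends less on how reads were split between them, was 43.3, 95.4 and 107 in 40-minute IRI kidneys on day 1 against 95.9, 119 and 183 in controls, and 185, 205 and 315 in 20-minute IRI kidneys against 54.7, 91.3 and 131 in controls.

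**Figure D3:**
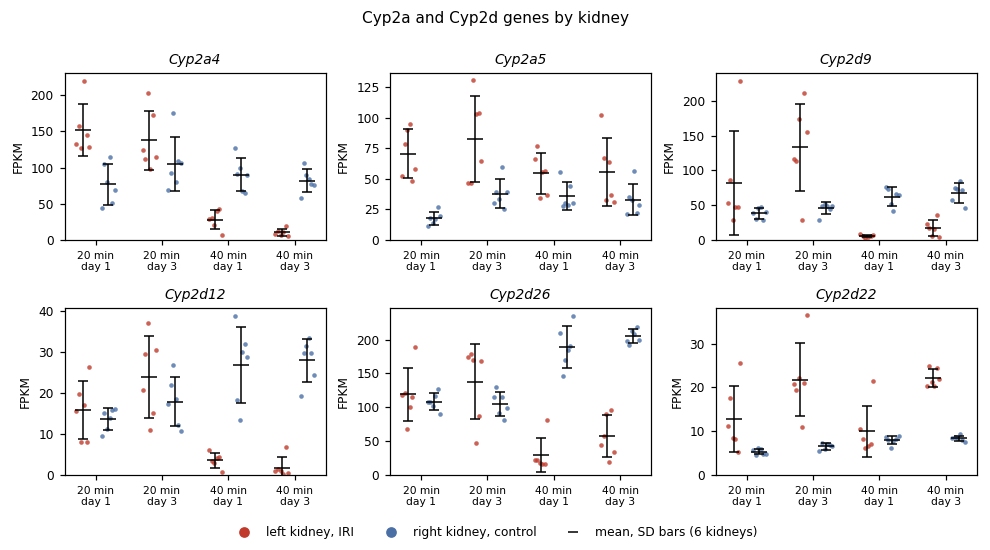
FPKM of Cyp2a4, Cyp2a5, Cyp2d9, Cyp2d12, Cyp2d26 and Cyp2d22 by clamp time and day; each point is 1 kidney, the bar is the mean of 6 and the whiskers are the SD, with IRI kidneys (red) left of controls (blue). Cyp2a4 is above its controls on day 1 after 20 minutes and below them after 40 minutes on both days, and Cyp2d22 is above its controls on day 3 at both clamp times.

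The Cyp2d genes on chromosome 15 also took both directions. Cyp2d9, a testosterone hydroxylase that is higher in male mice, measured 3.10, 5.69 and 8.98 FPKM in 40-minute IRI kidneys on day 1 against 42.3, 65.4 and 76.4 FPKM in controls. No kidney overlapped, and the log2 difference was -3.47 (SE 0.23, adjusted p = 7.6e-08), with -2.30 (SE 0.43, adjusted p = 0.00057) on day 3. After 20 minutes on day 3 it measured 29, 136 and 211 FPKM against 29, 49.4 and 51.9 FPKM, a log2 difference of 1.35 (SE 0.39, adjusted p = 0.032). That rise was lost without replicate 1, 2, 3, 5 or 6 (log2 differences of 1.17 to 1.38, adjusted p of 0.08 to 0.11). The kidneys were uneven: replicate 4, the one with the highest injury markers, had 29 FPKM. On day 1 replicate 6, the one with the lowest injury markers (10.8 FPKM), had 229 FPKM while the others had at most 85.8 FPKM. Among those others was replicate 5, whose injury marker sum was the next lowest and close to that of replicate 6. The part of injury in the spread of Cyp2d9 was not tested.

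Cyp2d12 gave the largest fall, with 0.291, 0.889 and 6.86 FPKM in 40-minute IRI kidneys on day 3 against 19.2, 29.6 and 33.4 FPKM in controls. Its log2 difference was -4.79 (SE 0.59, adjusted p = 1.7e-05), beside -3.10 (SE 0.47, adjusted p = 9.4e-05) on day 1. After 20 minutes the differences were 0.11 (SE 0.28, adjusted p = 0.84) and 0.37 (SE 0.31, adjusted p = 0.46). Cyp2d26 measured 15.7, 19.7 and 80.5 FPKM against 147, 188 and 235 FPKM on day 1 after 40 minutes, and it fell on both days (-2.99 and -2.05). Its highest value on day 1 came from replicate 6, which also had the lowest injury marker sum of its group (675 FPKM, against 1648 FPKM or more in the other 5). Without that mouse 22 of the 51 genes fell and 5 rose on that day. The controls of 40-minute mice had more Cyp2d26 than those of 20-minute mice, by log2 differences of 0.80 (SE 0.11, adjusted p = 0.0034) on day 1 and 0.98 (SE 0.10, adjusted p = 0.00011) on day 3, under 2-fold and without overlap.

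Cyp2d22 rose on day 3 at both clamp times. It measured 20.3, 21.6 and 24.9 FPKM in 40-minute IRI kidneys against 7.60, 8.46 and 9.25 FPKM in controls, and 11, 20.9 and 36.6 FPKM against 5.41, 6.67 and 7.24 FPKM after 20 minutes. All IRI kidneys were above all controls, with log2 differences of 1.40 (SE 0.07, adjusted p = 8.8e-09) and 1.67 (SE 0.22, adjusted p = 0.00031). On day 1 it measured 5.25, 9.82 and 25.6 FPKM against 4.59, 5.29 and 6.12 FPKM after 20 minutes, with overlap, though the left kidney was higher than the right in 6 of 6 mice. That difference was 1.06 (SE 0.31, adjusted p = 0.059), not called, and it was called without replicate 5 (adjusted p = 0.033) and with all 8 groups in 1 fit (adjusted p = 0.0031). After 40 minutes the day 1 difference was 0.20 (SE 0.26, adjusted p = 0.54). Cyp2d10 and Cyp2d37-ps, the remaining genes of the cluster, were at 0 FPKM in many kidneys and passed in no comparison of IRI with control.

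A small set of genes, low in control cortex, rose after 40 minutes. They were 13.7% of the 51 genes on day 1, near the 15.7% of all genes, and 23.5% against 15.3% on day 3. Cyp1b1, which metabolises estradiol and polycyclic hydrocarbons and is a target of the aryl hydrocarbon receptor, measured 16.2, 18.2 and 35.8 FPKM in 40-minute IRI kidneys against 3.54, 4.26 and 7.67 FPKM in controls on day 1. On day 3 it measured 9.36, 22.7 and 28.4 FPKM against 4.05, 4.98 and 5.90 FPKM. The groups did not overlap, and the log2 differences were 2.13 (SE 0.22, adjusted p = 3.6e-06) and 2.06 (SE 0.23, adjusted p = 6.6e-06). After 20 minutes they were 0.71 (SE 0.37, adjusted p = 0.25) and 0.19 (SE 0.28, adjusted p = 0.69). Another classical target of the same receptor, Cyp1a1, was under 1 FPKM in all kidneys and fell on day 3 after 40 minutes (-2.90, SE 0.53, adjusted p = 0.00041); with its most abundant transcript alone the difference was 0.39 (adjusted p = 0.82).

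Cyp3a13, a P450 of the main drug-metabolising subfamily, measured 0.673, 2.0 and 2.56 FPKM in 40-minute IRI kidneys on day 1 against 0.0325, 0.0978 and 0.181 FPKM in controls. The log2 difference was 4.04 (SE 0.42, adjusted p = 4.3e-06), and 3.25 (SE 0.38, adjusted p = 1.1e-05) on day 3, without overlap on either day. No control kidney reached the 0.5 FPKM that the deposited table required (the highest had 0.34 FPKM), so the gene was in the table only through IRI kidneys. Because these levels are low the size depends on the constant added: with 1 FPKM added the differences were 1.34 (adjusted p = 9.1e-06) and 0.83 (adjusted p = 2.1e-06), and the call on day 3 was lost. Cyp2s1, a P450 of epithelia, measured 11.6, 14.7 and 15.5 FPKM against 4.10, 5.13 and 5.59 FPKM on day 3 and rose on both days (1.25 and 1.5). Cyp4v3, the mouse counterpart of the human fatty acid hydroxylase CYP4V2, measured 5.50, 5.92 and 6.73 FPKM against 1.52, 1.75 and 1.98 FPKM on day 3, with log2 differences of 1.51 (SE 0.14, adjusted p = 1.6e-06) and 1.79 (SE 0.09, adjusted p = 1.3e-08). For both genes all IRI kidneys were above all controls on both days.

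Cyp4f18, a leukotriene B4 hydroxylase of mouse neutrophils and other myeloid cells, was the only gene that rose in all 4 comparisons. It measured 0.917, 1.73 and 3.55 FPKM in 40-minute IRI kidneys on day 3 against 0.0433, 0.0790 and 0.334 FPKM in controls, a log2 difference of 3.94 (SE 0.51, adjusted p = 2.5e-05). The others were 2.65 after 40 minutes on day 1, and 1.70 and 2.05 after 20 minutes; the day 1 call after 20 minutes was lost with each mouse as a block (1.70, adjusted p = 0.072) and without replicate 2, 3, 4 or 5 (log2 differences of 1.49 to 1.66, adjusted p of 0.051 to 0.092). With 1 FPKM added, the differences were 0.50 (adjusted p = 0.023), 0.69 (adjusted p = 0.0063) and 0.83 (adjusted p = 0.001) after 20 minutes on both days and after 40 minutes on day 1, under 2-fold. Myeloid markers rose in the same kidneys: 5 of 5 neutrophil and 5 of 6 macrophage markers on day 1 after 40 minutes, and 4 and 5 on day 3. After 20 minutes it was 0 and 1 on day 1 and 0 and 2 on day 3, and the part of these cells in the level of Cyp4f18 was not tested. Cyp4f16 and Cyp4f17 rose on day 3 after 40 minutes (1.08 and 1.15), calls lost without replicate 2 or 6 (log2 differences of 0.95 to 0.98, adjusted p of 0.028 to 0.03) and without replicate 1 (log2 difference 0.95, adjusted p = 0.00084). Cyp4f13 passed in none of the comparisons, and Cyp4f14, another leukotriene B4 hydroxylase, fell on both days (-1.73 and -3.16) at levels under 1 FPKM.

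**Figure D4:**
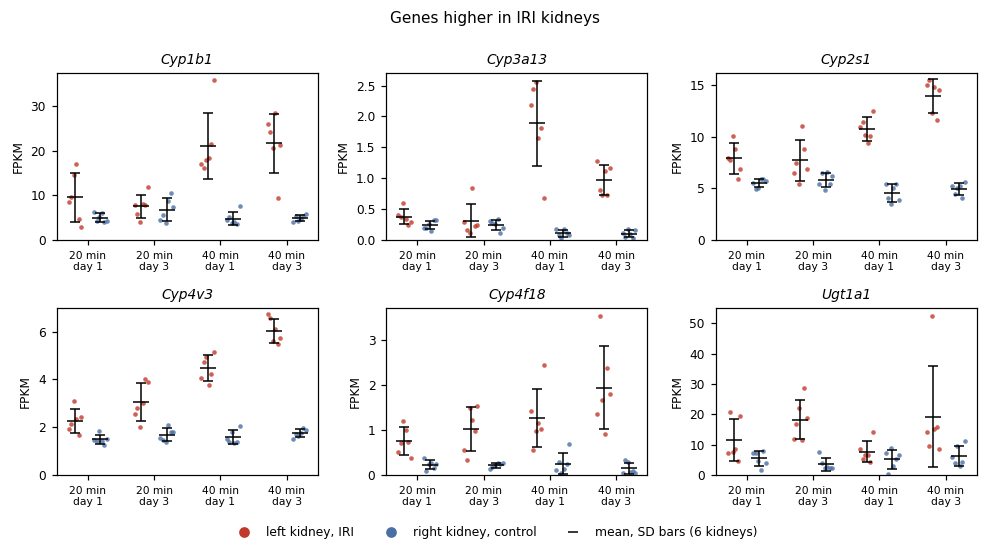
FPKM of Cyp1b1, Cyp3a13, Cyp2s1, Cyp4v3, Cyp4f18 and Ugt1a1 by clamp time and day; each point is 1 kidney, the bar is the mean of 6 and the whiskers are the SD, with IRI kidneys (red) left of controls (blue). After 40 minutes Cyp1b1, Cyp3a13, Cyp2s1 and Cyp4v3 are above their controls in every kidney on both days.

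Cyp2b10, the standard target of the constitutive androstane receptor, was listed at 0 FPKM in 6, 4, 5 and 4 of the 6 controls of the 20-minute day 1, 20-minute day 3, 40-minute day 1 and 40-minute day 3 mice. In IRI kidneys it reached 3.04, 2.34, 0.543 and 0.982 FPKM, and it passed the test in all but the first of these groups. Its highest control value was 0.0851 FPKM, so it was in the deposited table only through IRI kidneys, and a rise is partly set by that. Since many controls are listed at 0, no fold is given. The calls after 40 minutes were lost on day 1 without replicate 1, 2, 4 or 6 (adjusted p of 0.05 to 0.095) and on day 3 without replicate 1, 4 or 5 (adjusted p of 0.053 to 0.088). With 1 FPKM added all 3 calls were lost. The remaining low genes, Cyp2c68, Cyp2c69, Cyp2j7, Cyp2j8, Cyp2u1, Ugt1a8, Cyp2r1 and Cyp2f2, were between 0 and 3.02 FPKM. Cyp2c68, Cyp2c69 and Cyp2j7 fell on both days after 40 minutes, and Cyp2c69 also on day 3 after 20 minutes. Cyp2c68 was listed at 0 FPKM in 5 of 6 IRI kidneys on each of these days and was in the table only through controls. Cyp2u1 fell on day 1 and Ugt1a8 on day 3 after 40 minutes, Cyp2j8 rose on day 3, and Cyp2r1, which hydroxylates vitamin D, and Cyp2f2 passed in no comparison of IRI with control. The day 3 call of Cyp2j7 was lost with each mouse as a block (-1.10, adjusted p = 0.056) and without replicate 1, 3 or 4 (log2 differences of -1.0 to -0.85, adjusted p of 0.06 to 0.09), and that of Ugt1a8 without replicate 1, 3, 4, 5 or 6 (log2 differences of -1.08 to -0.71, adjusted p of 0.054 to 0.11).

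The Ugt1a genes form 1 locus on chromosome 1 in which 9 measured genes each have their own first exon and share the rest. All 9 main transcripts splice to the same second exon, which starts at position 88215044 (GRCm38), and the first exon makes up 28.3% to 42.1% of each. The junctions are printed because reads that lie wholly in the shared exons cannot be assigned to 1 gene: the last 30 bases of each first exon are in lower case and the 30 shared bases of the second exon, chr1:88215044-88215073, in capitals.
Ugt1a10: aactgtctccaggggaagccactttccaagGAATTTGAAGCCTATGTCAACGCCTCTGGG
Ugt1a9: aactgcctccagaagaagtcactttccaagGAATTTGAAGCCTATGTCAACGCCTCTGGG
Ugt1a8: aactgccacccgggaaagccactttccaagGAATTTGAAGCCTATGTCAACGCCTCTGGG
Ugt1a7c: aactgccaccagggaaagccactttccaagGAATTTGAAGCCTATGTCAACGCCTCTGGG
Ugt1a6b: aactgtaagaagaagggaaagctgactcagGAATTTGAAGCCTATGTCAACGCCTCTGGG
Ugt1a6a: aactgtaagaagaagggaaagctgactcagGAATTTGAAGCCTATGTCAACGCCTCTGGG
Ugt1a5: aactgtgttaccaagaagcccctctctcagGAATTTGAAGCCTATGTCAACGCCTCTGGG
Ugt1a2: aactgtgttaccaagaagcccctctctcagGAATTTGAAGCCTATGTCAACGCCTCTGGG
Ugt1a1: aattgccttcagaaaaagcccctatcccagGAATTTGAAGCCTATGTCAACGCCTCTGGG
The last 30 bases of the first exon are also identical between Ugt1a6a and Ugt1a6b and between Ugt1a2 and Ugt1a5. Of the 150-base windows of the main transcripts, from 38.5% (Ugt1a7c) to 97.2% (Ugt1a6a) occur in another gene of the locus.

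Levels of single Ugt1a genes were uneven within groups. Ugt1a5 was at 44.8 FPKM or more in 17 of the 48 kidneys and at or under 9.77 FPKM in all others, with no value between. The high kidneys were 5 of 6 on day 1 and 4 of 6 on day 3 after 20-minute IRI, 2 of 6 on each day after 40-minute IRI, and 2, 1, 0 and 1 of 6 in the controls of the 20-minute day 1, 20-minute day 3, 40-minute day 1 and 40-minute day 3 mice. Ugt1a6b was at 40 FPKM or more in 15 kidneys, 14 of them among the 17 of Ugt1a5. Neither gene passed a comparison with controls when all mice entered without a block. Ugt1a5 rose on day 3 after 20 minutes with each mouse as a block (2.67, adjusted p = 0.039) and without replicate 2 (3.22, adjusted p = 0.031). It also rose on day 1 without replicate 2 after 20 minutes (3.08, adjusted p = 0.05) and without replicate 1 after 40 minutes (2.76, adjusted p = 0.04). The SEs of Ugt1a5 and Ugt1a6b after 40 minutes were 0.93 and 0.75 on the log2 scale on day 1. The part of the assignment of shared reads in these splits was not tested.

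The sum of the 9 Ugt1a genes, which depends less on how their shared reads were split, was 220.1, 249.99 and 340.1 FPKM in 20-minute IRI kidneys on day 1 against 139, 154 and 249 FPKM in controls, and 192, 307 and 366 FPKM against 129, 159 and 269 FPKM on day 3. After 40 minutes it was 112, 137 and 303 FPKM against 123, 144 and 159 FPKM on day 1 and 142, 199 and 302 FPKM against 138, 150.4 and 274 FPKM on day 3. IRI and control kidneys overlapped in all 4 pairs, unlike the sum of the Ugt2b genes, which was 178, 207 and 233 FPKM in 40-minute IRI kidneys on day 1 against 566, 694 and 843 FPKM in controls. The most abundant gene of the locus, Ugt1a7c, measured 65.9, 80.4 and 99.5 FPKM in 40-minute IRI kidneys against 89.9, 112 and 133 FPKM in controls on day 1, a log2 difference of -0.46 (SE 0.12, adjusted p = 0.0064). On day 3 it was -0.06 (SE 0.16, adjusted p = 0.78).

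**Figure D5:**
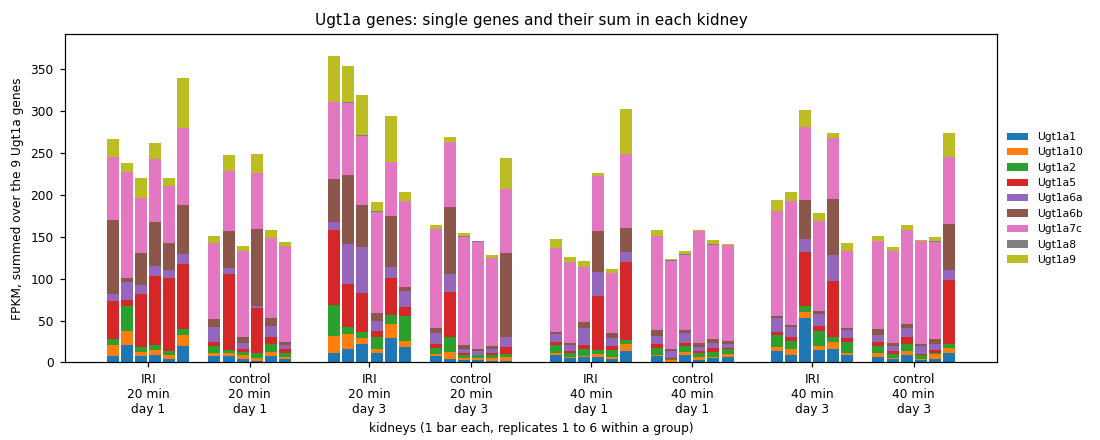
FPKM of the 9 Ugt1a genes stacked in each of the 48 kidneys, 1 bar a kidney, with IRI groups left of their controls. Ugt1a7c is present in all bars, while Ugt1a5 and Ugt1a6b appear at 40 FPKM or more in 17 and 15 of them: Ugt1a5 in 13 of 24 IRI and 4 of 24 control kidneys, Ugt1a6b in 10 of 24 and 5 of 24.

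Within the locus Ugt1a1, the bilirubin-conjugating enzyme, rose on day 3 at both clamp times. It measured 11.5, 17.6 and 28.8 FPKM in 20-minute IRI kidneys against 2.2, 2.42 and 7.50 FPKM in controls, without overlap, a log2 difference of 2.48 (SE 0.32, adjusted p = 0.00031). After 40 minutes it measured 8.38, 14.6 and 52.5 FPKM against 3.03, 5.08 and 11.2 FPKM, 1.47 (SE 0.44, adjusted p = 0.012), with overlap. Ugt1a10 rose after 20 minutes on day 1 (1.23, SE 0.31, adjusted p = 0.038) and day 3 (1.44, SE 0.40, adjusted p = 0.026), calls lost without replicate 1, 2, 3, 4 or 6 (log2 differences of 1.03 to 1.40, adjusted p of 0.063 to 0.12) and without replicate 1, 3, 5 or 6 (log2 differences of 1.16 to 1.58, adjusted p of 0.054 to 0.1). With each mouse as a block its day 1 difference was 1.23 (adjusted p = 0.09), not called. Ugt1a2 rose on day 3 at 1.56 after 20 minutes and 1.23 after 40 minutes, and each call was lost in 5 of the 6 fits that left out a mouse, with adjusted p of 0.075 to 0.17 and 0.032 to 0.14; with each mouse as a block the day 3 difference after 20 minutes was 1.56 (adjusted p = 0.071). Ugt1a9 rose on day 3 after 20 minutes and on day 1 after 40 minutes; with each mouse as a block the differences were 2.76 (adjusted p = 0.054) and 1.74 (adjusted p = 0.055), not called. Both calls were also lost without replicate 1, 2, 3 or 5 (log2 differences of 2.53 to 2.75, adjusted p of 0.083 to 0.11) after 20 minutes and without replicate 2, 3 or 6 (log2 differences of 0.97 to 1.89, adjusted p of 0.059 to 0.11) after 40 minutes.

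The third question was whether the response itself differed with the length of the clamp. The fold change of IRI over control was compared between 40 and 20 minutes by an interaction term, called at an adjusted p under 0.05. On day 1 it was lower after 40 minutes for 21 of the 51 genes and higher for 4, against 11.3% and 18.5% of all genes. On day 3 it was lower for 15 and higher for 7, against 8.99% and 20.4%. Of these, Cyp3a13 (higher) and Cyp2d37-ps (lower), called on both days, were in the deposited table only through IRI kidneys. So was Cyp2d10, lower on day 3. Cyp1a1 and Cyp2c68, also lower on day 3, were in it only through controls. The smallest adjusted p values on day 1 were those of Ugt3a1 (-2.68, SE 0.23, adjusted p = 8.3e-08), Cyp2j11 (-2.23, SE 0.20, adjusted p = 1.2e-07) and Ugt3a2 (-1.29, SE 0.14, adjusted p = 1.6e-06). On day 3 they were those of Ugt3a1 (-3.17, SE 0.31, adjusted p = 3.5e-07), Cyp2a4 (-3.43, SE 0.36, adjusted p = 7.9e-07) and Cyp2d12 (-5.16, SE 0.70, adjusted p = 1.5e-05). With each mouse as a block, Ugt1a10 (-1.58, adjusted p = 0.069) and Ugt2b5 (-0.63, adjusted p = 0.076) were no longer called on day 1 nor Ugt2a3 (-1.27, adjusted p = 0.089) on day 3, and Cyp2c68 was called lower on day 1 (adjusted p = 0.039). Some of these calls were also lost in other alternative fits. On day 1 that of Ugt1a10 was lost in 9 of 20 fits, Ugt2b5 in 7, Ugt2b37 in 6, and Cyp2d37-ps in 6 of 19. On day 3 that of Ugt2a3 was lost in 11 of 19 fits, Cyp2c68 in 10, and Cyp2d10 and Cyp2d37-ps in 6. Leaving out 1 mouse gave 17 to 23 genes lower on day 1 and 11 to 18 on day 3. For Cyp2j13 on day 3 the fall was smaller after 40 than after 20 minutes (0.97, SE 0.19, adjusted p = 0.00062).

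Injured kidneys were also set directly against each other. Between 40-minute and 20-minute IRI kidneys, 16 genes were lower and 2 higher on day 1, against 5.88% and 7.82% of all genes, and 15 and 3 on day 3, against 2.32% and 9.82%. Without 20-minute day 1 replicate 6, 4 were higher on day 1, and without 40-minute day 3 replicate 4 or 20-minute day 3 replicate 3, 9 were lower on day 3. The 9 genes lower on both days were Cyp2a4 (-2.64 and -3.75), Cyp2d12 (-2.29 and -4.47), Cyp2d9 (-3.53 and -3.08), Ugt3a1 (-2.51 and -2.96), Cyp2d26, Cyp2j11, Cyp4f14, Ugt2a3 and Ugt3a2. How many of all genes were lower on both days was not counted. The day 3 calls of Ugt2a3 and Cyp2d26 were lost in 8 of 18 and 7 of 19 alternative fits, those without a mouse included. Cyp1b1 was higher on both days (1.33 and 1.5), as was Cyp3a13 (2.24 and 1.87). Cyp3a13 was in the deposited table only through IRI kidneys, as were Cyp2d10 and Cyp2d37-ps among the 15 lower on day 3. Cyp1a1, also among those 15, was in it only through controls. The part of the filter in these calls was not tested.

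The last question was whether the genes came back between day 1 and day 3, in different mice. After 20 minutes none of the 51 genes passed the limma test of the difference between the days, where 6 of all 14271 genes tested were higher (0.042%) and 6 lower (0.042%); 6 of the 51 had an unadjusted p under 0.05. Without 20-minute day 1 replicate 6, 2 were higher and 2 lower on day 3. After 40 minutes 4 differences were higher and 1 lower on day 3, against 5.69% and 8.2% of all genes. The share that was higher is near that of all genes. Of the 4 genes only Cyp2e1 had fallen on day 1. The others, Cyp2d22, Cyp2j9 and Cyp2j6, had day 1 differences of 0.196, 0.045 and 0.003, not called. Cyp1a1, the 1 lower, was in the deposited table only through controls. Cyp2e1 measured 76.2, 100.4 and 233 FPKM in 40-minute IRI kidneys on day 1 against 372, 585 and 774 FPKM in controls, and 175, 283 and 401 FPKM against 384, 464 and 749.5 FPKM on day 3. Its log2 difference was -2.32 (SE 0.27, adjusted p = 9.2e-06) on day 1 and -0.86 (SE 0.23, adjusted p = 0.0058) on day 3, and the day 3 value was higher by 1.46 (SE 0.37, adjusted p = 0.015). The fold changes of Cyp2d22 (1.2, SE 0.28, adjusted p = 0.011), Cyp2j9 (0.93, SE 0.29, adjusted p = 0.035) and Cyp2j6 (0.70, SE 0.14, adjusted p = 0.0074) were also higher on day 3, and that of Cyp1a1 was lower (-2.33, SE 0.61, adjusted p = 0.018). The call of Cyp2j9 was lost without 40-minute day 1 replicate 1, 3, 4 or 5 or day 3 replicate 1 or 5 (adjusted p of 0.061 to 0.091), and with the most abundant transcript alone the difference of Cyp1a1 was 2.92 (adjusted p = 0.24). For Cyp2a4, Cyp2d12, Ugt2b37 and Ugt3a1 the day 3 fold changes were further from 0 than those of day 1, by -1.16, -1.69, -1.0 and -0.38, and none of these differences was called; with each mouse as a block that of Ugt2b37 was (-1.0, adjusted p = 0.049). Without 40-minute day 1 replicate 6, the kidney with the lowest injury marker sum of its group, 8 genes were higher and 4 lower on day 3, Cyp2a4, Cyp2d12 and Ugt2b37 among the lower. Without 40-minute day 3 replicate 5, 2 were lower.

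Genes that serve or accompany these enzymes were read from lists in the same fits, where 15.7% of all genes rose and 7.39% fell on day 1 after 40 minutes, and 15.3% and 5.98% on day 3. Of 8 genes for electron transfer and haem turnover, 2 rose and none fell on day 1 after 40 minutes: haem oxygenase Hmox1 (3.21, SE 0.26, adjusted p = 4.5e-07) and the cytochrome b5 reductase Cyb5r3 (1.10, SE 0.07, adjusted p = 9e-08), while Por had 0.23 (SE 0.06, adjusted p = 0.0042). Of 7 genes for the supply of UDP-glucuronic acid and the cleavage of glucuronides, only Ugdh, which makes UDP-glucuronic acid, rose, on day 1 after 40 minutes (1.58, SE 0.19, adjusted p = 1.1e-05). Of the measured receptors and transcription factors known to control P450 and UGT genes, 15 on day 1 and 16 on day 3, none passed on day 1 after 40 minutes, and the pregnane X receptor Nr1i2 (1.19, SE 0.11, adjusted p = 1.7e-06) and Ppara (1.42, SE 0.22, adjusted p = 0.0001) rose on day 3. The smallest adjusted p values on day 1 in this list were those of Nfe2l2 (0.97, SE 0.11, adjusted p = 1.1e-05), Hnf4a (-0.53, SE 0.10, adjusted p = 0.00062) and Stat5b (-0.48, SE 0.09, adjusted p = 0.00064).

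Other conjugating and oxidising enzymes were read against the same shares of all genes. Of 24 flavin monooxygenases, hydrolases, dehydrogenases and related enzymes, 10 fell and 6 rose on day 1, and 5 fell and 7 rose on day 3. Aldh1a1 and Aldh1a7, aldehyde dehydrogenases, rose at both clamp times, with day 3 differences of 3.93 (SE 0.13, adjusted p = 3.3e-10) and 2.83 (SE 0.13, adjusted p = 3.4e-09) after 40 minutes and 3.70 (SE 0.18, adjusted p = 3.8e-07) and 3.80 (SE 0.14, adjusted p = 1.9e-08) after 20 minutes. Nqo1, a quinone reductase, rose by 2.02 (SE 0.10, adjusted p = 1.1e-08) on day 1 after 40 minutes. The genes named from this list are all among those that rose, and none of the 10 that fell on day 1 is named. Of 22 glutathione S-transferases 3 rose and 3 fell on day 1, with Mgst1 at 2.35 (SE 0.12, adjusted p = 1e-08) and Gsta1 at 3.01 (SE 0.33, adjusted p = 6.9e-06); the share that rose is near that of all genes. Of 8 sulfotransferase and sulfate donor genes 2 rose and 2 fell, with the sulfate donor synthase Papss2 at -1.42 (SE 0.12, adjusted p = 6.9e-07). The estrogen sulfotransferase Sult1e1 passed (adjusted p = 1.3e-05) with 0.0609, 1.35 and 3.0 FPKM in IRI kidneys. As it was listed at 0 FPKM in all 6 controls no fold is given. None of these controls reached the 0.5 FPKM that the deposited table required, so this rise may be partly set by that filter. Of 12 P450 genes of other families 4 fell and 2 rose: the oxysterol hydroxylase Cyp7b1 (-4.22, SE 0.36, adjusted p = 7.1e-07) and the sterol demethylase Cyp51 (-2.46, SE 0.10, adjusted p = 2.6e-09) were among those that fell, and the vitamin D hydroxylase Cyp27b1 (3.57, SE 0.39, adjusted p = 5.5e-06) rose. The share of this list that rose is also near that of all genes. The median log2 differences of the 4 lists in this order were -0.39, -0.14, -0.54 and -0.27, against 0.24 for all genes.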

How the data were processed

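The authors deposited 1 table of FPKM values per Ensembl transcript for 48 libraries of renal cortex. Their sources name HISAT2 2.1.0, FastQC 0.11.7, Ballgown and the build GRCm38; every deposited transcript reached 0.5 FPKM in at least 1 library. The 33953 transcripts were matched by identifier to GENCODE M21 (33871 matched), and deposited FPKM values were summed per gene (14320 genes). The 51 genes came from 79 transcripts, 31 of them from 1 transcript each. Read counts are not used here, and depth was estimated from the spacing of low FPKM values.

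Genes averaging 0.01 FPKM or more over the compared groups were tested on log2(FPKM + 0.01) with limma 3.58.1 (trend, R 4.3.3), with Benjamini-Hochberg adjustment over all genes tested. Fold changes on this scale understate the change of low genes. Differences of fold changes were called at an adjusted p under 0.05 alone. The scripts were tested on simulated data. Tables and figures were made in Python 3.11.15.

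Left and right kidneys of a mouse share a replicate number. Their deviations from the group means correlated little, with medians of 0.004 and 0.039 (20 minutes, day 1 and day 3) and 0.059 and -0.018 (40 minutes, day 1 and day 3) over 6 mice each. The mouse as a block was an alternative, and its values stand beside a result where a call changed. Other alternatives were constants of 0.1 and 1 FPKM, no filter, a filter at 1 FPKM, libraries scaled to an equal median, the most abundant transcript alone, all 8 groups in 1 fit, and each mouse left out.

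Genes named were the 12 highest in controls. In each comparison of IRI with control or of 40 with 20 minutes, the 5 largest rises and falls were named. For each difference of fold changes the 3 smallest adjusted p were named. All but the 12 highest needed a group mean of 1 FPKM or more. Of the 3 smallest adjusted p per accompanying list after 40 minutes, only some were named. Genes outside these rules were named to account for all 51, or after their values were seen. The genes and lists were chosen with earlier results of these data known.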

Additional observations from a re-analysis of the deposited data

Results flagged for a closer look

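In 29 of 224 groups of 6 kidneys, over 28 genes, 1 kidney stood apart from the others by Dixon's criterion. For independent values with a normal distribution, chance gives this in about 1 in 20 groups. Here FPKM were not log-transformed, the genes share kidneys, and some were picked for large differences. That rate therefore cannot tell whether 29 is more than chance gives. Replicate 6 of the 40-minute IRI group on day 1 had Cyp1b1 35.8 FPKM (others 16.2 to 21.4), Cyp2d22 21.4 FPKM (others 6.16 to 10.6), Cyp2d26 80.5 FPKM (others 15.7 to 22.2), Cyp2e1 233 FPKM (others 76.2 to 120.0), Cyp2j11 27.7 FPKM (others 15.5 to 18.7), Cyp2j6 21.6 FPKM (others 14.0 to 15.9), Ugt1a10 7.69 FPKM (others 0.751 to 3.32), Ugt1a9 53.3 FPKM (others 3.36 to 10.3) and Ugt2b37 9.44 FPKM (others 31.5 to 38.9). Replicate 5 of the 40-minute IRI group on day 3 had Cyp2d12 6.86 FPKM (others 0.291 to 1.41) and Ugt3a1 21.7 FPKM (others 6.78 to 12.2). Replicate 6 of the 20-minute IRI group on day 1 had Cyp2d9 229 FPKM (others 29.1 to 85.8) and Ugt1a9 60.2 FPKM (others 9.81 to 24.1). Replicate 1 of the 20-minute control group on day 3 had Cyp2d9 29 FPKM (others 44.4 to 51.9) and Ugt1a1 7.50 FPKM (others 2.2 to 4.01). Replicate 4 of the 20-minute IRI group on day 3 had Cyp3a13 0.834 FPKM (others 0.108 to 0.294) and Ugt3a1 42.8 FPKM (others 79.9 to 97.4). Replicate 2 of the 20-minute control group on day 3 had Ugt1a10 8.75 FPKM (others 2.82 to 4.25) and Ugt1a2 17.1 FPKM (others 3.02 to 6.51). Replicate 2 of the 40-minute control group on day 1 had Ugt1a2 0.965 FPKM (others 5.41 to 7.93) and Ugt3a2 667 FPKM (others 571 to 594). Replicate 4 of the 20-minute IRI group on day 1 had Cyp2a4 219.7 FPKM (others 127 to 157). Replicate 3 of the 20-minute IRI group on day 1 had Cyp2j11 44.7 FPKM (others 78.1 to 95.3). Replicate 4 of the 40-minute control group on day 3 had Cyp2j6 12.9 FPKM (others 14.9 to 15.9). Replicate 3 of the 40-minute IRI group on day 3 had Ugt1a1 52.5 FPKM (others 8.38 to 15.7). Replicate 2 of the 20-minute IRI group on day 1 had Ugt1a2 29.8 FPKM (others 4.17 to 7.46). Replicate 6 of the 20-minute control group on day 3 had Ugt1a9 37.3 FPKM (others 0.664 to 6.01). Replicate 6 of the 40-minute control group on day 3 had Ugt1a9 28.3 FPKM (others 0.434 to 6.29). Replicate 5 of the 20-minute control group on day 1 had Ugt3a2 561 FPKM (others 605 to 629).

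Replicate 6 of the 40-minute IRI group on day 1 accounted for 9 of these, 8 of them the highest value of the group, and it had the lowest injured proximal tubule marker sum of its group (675 FPKM, others 1648 to 2242 FPKM) and the highest proximal tubule marker sum (2068 FPKM, against at most 1275 FPKM in the other 5). The same kidney also had the highest macrophage, adipocyte and hepatocyte marker sums of its group and the lowest neutrophil marker sum. The part of these marker differences in the values was not tested.

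The response also differed between conditions by the test of the difference itself. The fold change after 40 minutes differed from that after 20 minutes on day 1 for Ugt3a1 (-2.68), Cyp2j11 (-2.23) and Ugt3a2 (-1.29), and on day 3 for Ugt3a1 (-3.17), Cyp2a4 (-3.43) and Cyp2d12 (-5.16). Between day 3 and day 1 after 40 minutes it differed for Cyp2j6 (0.70), Cyp2d22 (1.2) and Cyp2e1 (1.46). These values are log2 differences, and all 6 mice of each group entered each of them.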

How the results depend on the processing

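Counts of the 51 genes called were within 1.5 times the reported count in 167 of 184 alternatives that kept all mice and in 213 of 240 that left out a mouse. Single genes kept their side of the threshold in 4732 cases with all mice and 6085 without a mouse. These include changes of direction where neither fit called the gene, which were not counted apart. Calls were lost in 87 and 193 and gained in 31 and 81. Where a fit called the gene, direction reversed in 2 cases, both Cyp1a1 with its most abundant transcript alone. The values were 0.39 on day 3 after 40 minutes and 2.92 for day 3 minus day 1. The cause was not tested. With 1 FPKM added, counts were 7 higher and 12 lower after 40 minutes on day 3, 1 higher and 9 lower for 40-minute against 20-minute IRI on day 3, and 0 higher between controls on day 1. With genes averaging at least 1 FPKM alone, which tests fewer genes, they were 4 higher after 40 minutes on day 1, 13 lower on day 3, 9 lower for 40-minute against 20-minute IRI on day 3, 9 lower for the difference of fold changes on day 3, and 0 lower for day 3 minus day 1 after 40 minutes. Scaling to an equal median gave 2 higher after 20 minutes on day 1. The replicate block also gave 2 there, and 2 lower for day 3 minus day 1 after 40 minutes, and moved no other count by over 1.5 times. The most abundant transcript alone gave 0 lower for that difference. All 8 groups in 1 fit gave 2 lower for it, 1 lower for the same difference after 20 minutes, and 0 higher between controls on day 1. Leaving out 1 mouse gave 1 to 3 higher after 20 minutes on day 1 and 4 to 11 on day 3. For 40-minute against 20-minute IRI it gave 2 to 4 higher on day 1 and 9 to 17 lower on day 3. For day 3 minus day 1 it gave 0 to 2 higher and 0 to 2 lower after 20 minutes, and 3 to 8 higher and 1 to 4 lower after 40 minutes. Between controls it gave 0 to 2 higher on day 1 and 0 to 1 on day 3. Depth was estimated, not read from counts, and its effect on the 13 genes under 1 FPKM in controls was not measured.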
